A study of Mus musculus with 24 samples.

Results

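The genes described here are the FGF receptors Fgfr1, Fgfr2, Fgfr3 and Fgfr4 and 5 inhibitors that act back on the same pathway, Spry1, Spry2, Spry4, Dusp6 and Spred1. They were taken by gene symbol, without use of their values, from RNA-seq of spermatogonia (SPG) of postnatal day 7 mice. These 9 genes are among 23177 genes of a table for Zbtb16 and among 21688 genes of a separate table for Sox3, and all 9 passed the filter on low values in both. Each table held 12 libraries in 4 groups of 3, from testes pooled from 3 mice per isolation, on a C57BL/6J background. Undifferentiated SPG (uSPG) were isolated on magnetic beads against THY1, a surface protein used to mark them, and differentiating SPG (dSPG) on beads against KIT, the receptor for stem cell factor. In the Zbtb16 table, WT THY1+ and KIT+ cells were set against those of the Zbtb16 null, which is homozygous for luxoid (Zbtb16 lu/lu) in every cell of the body and is compared with littermates. In the Sox3 table, WT cells were set against a Sox3 cKO, in which a floxed Sox3 allele is deleted by Ddx4-Cre, a Cre driven by a germ cell promoter, so that somatic cells of the testis keep the gene. The study describes its 3 RNA-seq replicates as independent and biological, while the labels do not say which libraries share an isolation. P-values measure the spread between these libraries.

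FGF ligands made by somatic cells of the testis, together with GDNF, maintain undifferentiated spermatogonia. A ligand-bound receptor tyrosine kinase recruits adaptors that activate RAS, RAF, MEK and ERK. ERK output switches on its own brakes: Sprouty proteins act between receptor and RAF, SPRED1 brings the RAS inhibitor neurofibromin to the membrane, and DUSP6 removes phosphate from ERK in the cytoplasm. Transcripts of Dusp6 and the Sprouty genes are therefore widely used as readouts of ERK activity, together with the ETS factors Etv4 and Etv5.

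Levels are FPKM, read counts scaled to transcript length and to library size, which allow genes to be compared per length. Depth is not given in the tables used here and was estimated from the steps of low values, at 25.96 M to 35.2 M reads per library in the Zbtb16 table. In the Sox3 table it was 28.25 M to 31.88 M reads in replicate 1 and 11.02 M to 14.92 M reads in replicates 2 and 3. Fgfr4 rested on the fewest reads of the set, an estimated 12 to 226 per library, and Dusp6 on 448 to 6354. Zbtb16 itself was at 41.97 to 58.7 FPKM in WT THY1+ and 15.63 to 18.21 FPKM in null THY1+, and Sox3 was at 0 to 0.0820 FPKM in the cKO and 6.28 to 24.4 FPKM in its WT libraries. In the Zbtb16 table Thy1 was at 3.29 to 4.67 FPKM in THY1+ and 0.156 to 0.666 FPKM in KIT+. The Sox3 WT libraries went against their labels: those labelled THY1+ had Thy1 at 0.213 to 0.254 FPKM and Kit at 45.6 to 80.1 FPKM, and those labelled KIT+ had Thy1 at 3.59 to 4.06 FPKM and Kit at 13.0 to 18.8 FPKM. These groups keep their labels here, and results that rest on them are given for more than one pairing.

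Cells other than SPG were present in both fractions. Beside the KIT+ fraction, 8 Leydig cell markers summed to 1229 to 2311 FPKM in WT and 2073 to 3165 FPKM in null, against 87.3 to 124.7 and 52.6 to 84.9 FPKM in THY1+. Beside the THY1+ fraction, 11 macrophage markers summed to 1074 to 1229 FPKM in WT and 506.6 to 935.2 FPKM in null, against 7.70 to 9.80 and 7.50 to 19.9 FPKM in KIT+. No gene of either list was at 0 in every library of a group. SPG markers were present in both fractions: 15 uSPG markers summed to 248.3 to 289.5 FPKM in WT THY1+ and 105.0 to 127.4 FPKM in WT KIT+, and 7 dSPG markers to 192.9 to 224.7 and 362.7 to 387.9 FPKM. Fewer cells of a type and less RNA per cell cannot be told apart in these bulk samples.

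Because Dusp6 was the member with the largest difference between THY1+ and KIT+ in WT, and Fgfr2 and Fgfr4 were those that differed most the other way in WT, null and cKO, the 250 bases before their RefSeq starts (GRCm38.p6) are shown, 5′ to 3′ on the strand of the gene, with an ETS match in capitals. The Dusp6 window is chr10:99262981-99263230 (+), that of Fgfr2 is chr7:130266809-130267058 (-) and that of Fgfr4 is chr13:55152568-55152817 (+).
Dusp6: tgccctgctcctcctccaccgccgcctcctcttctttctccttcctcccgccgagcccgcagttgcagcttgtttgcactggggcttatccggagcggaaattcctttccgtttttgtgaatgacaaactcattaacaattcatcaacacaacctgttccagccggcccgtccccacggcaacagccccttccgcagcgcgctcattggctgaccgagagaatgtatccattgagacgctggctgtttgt
Fgfr2: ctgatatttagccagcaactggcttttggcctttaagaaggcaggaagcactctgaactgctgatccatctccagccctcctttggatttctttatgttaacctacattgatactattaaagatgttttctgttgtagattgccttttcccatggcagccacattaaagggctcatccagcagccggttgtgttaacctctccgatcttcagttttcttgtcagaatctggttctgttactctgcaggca
Fgfr4: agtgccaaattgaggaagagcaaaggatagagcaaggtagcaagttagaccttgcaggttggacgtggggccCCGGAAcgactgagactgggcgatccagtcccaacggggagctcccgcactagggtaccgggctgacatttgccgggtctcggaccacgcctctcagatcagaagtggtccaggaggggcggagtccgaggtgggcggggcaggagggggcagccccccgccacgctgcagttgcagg
Windows of the same kind were at hand for 7 of the 9 genes, which are all but Fgfr1 and Spry4. On either strand, the ETS letters CCGGAA were found in 1 of these 7, in Fgfr4 at 178 bases before its start, and in 12% of 32851 windows of all genes. The AP-1 letters TGANTCA were found in 0 of the 7 and in 6.7% of all windows. The window of Fgfr2 had a GC content of 44.0%, below the 56.4% of Dusp6 and the 64.0% of Fgfr4.

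The genes themselves lie apart in the genome. In RefSeq positions of GRCm38.p6, Fgfr1 spans chr8:25518759-25575718, Fgfr2 chr7:130162451-130266808, Fgfr3 chr5:33721724-33737068 and Fgfr4 chr13:55152818-55168759. Spry1 spans chr3:37639947-37644599, Spry2 chr14:105891947-105896819, Spry4 chr18:38586247-38601347, Dusp6 chr10:99263231-99267489 and Spred1 chr2:117121071-117182279. All 9 are protein-coding, and values cover whole transcripts. No stretch of 50 bases was shared between any of the 9 in the GENCODE transcripts, so reads of the 4 receptors were not interchangeable. For Spry1, 21.8% of such stretches also occur in transcripts of Gm42922, and for Fgfr3 11.62% also occur in those of other genes, mainly G630022F23Rik. The shares were 2.47% for Fgfr2, all with Ctbp2, and 1.49% for Fgfr1, and no stretch was shared for the other 5. How far shared stretches changed the levels was not tested.

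**Figure D1:**
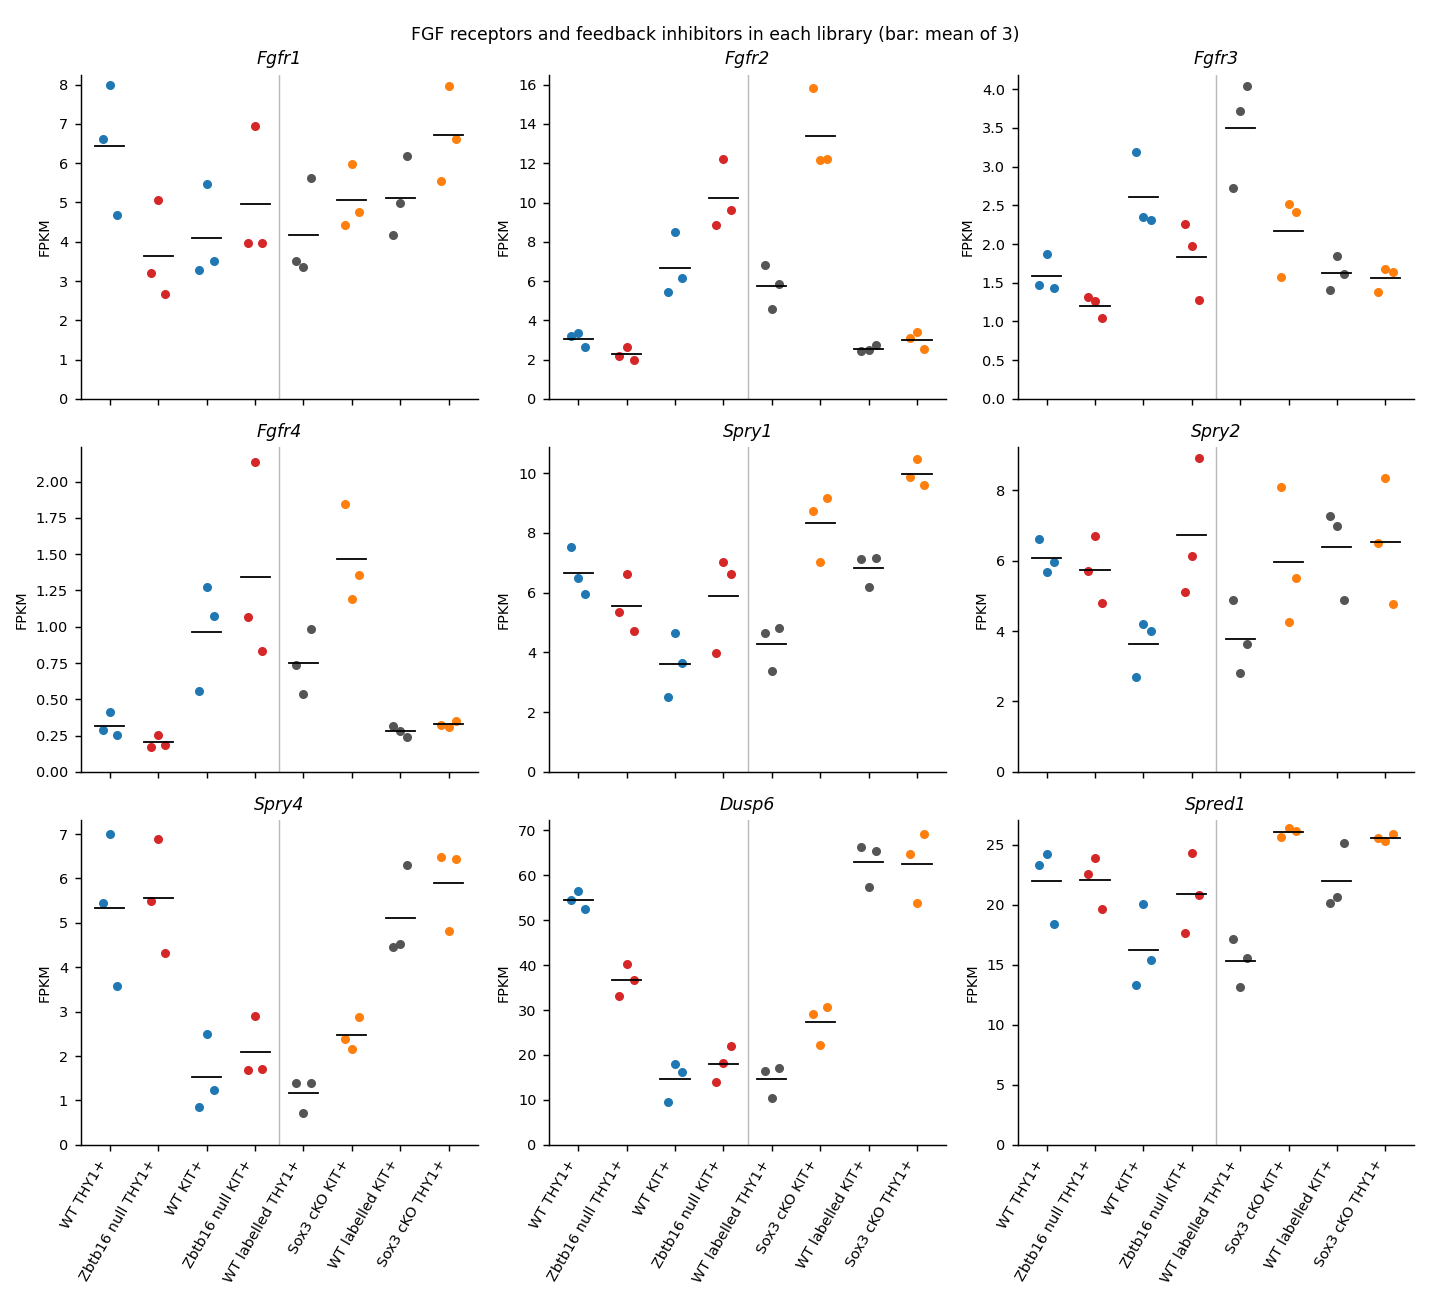
FPKM of the 9 genes (y axes, linear from 0) in each of 24 libraries, by group on the x axis, with Zbtb16 table libraries left and Sox3 table libraries right of the grey line, 1 point per library and a bar at the mean of 3. Fgfr2 and Fgfr4 sit higher in the 2 KIT+ groups of the Zbtb16 table than in the 2 THY1+ groups, and Dusp6 and Spry4 sit lower there.

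In the WT THY1+ fraction, which also held macrophage markers, the feedback phosphatase was by far the most abundant transcript of the set. Dusp6 was at 54.5 ± 1.98 FPKM (mean ± SD, n = 3) and Spred1 at 22.0 ± 3.14 FPKM, and neither range touched that of the next gene. Spry1 (6.67 ± 0.81), Fgfr1 (6.43 ± 1.66), Spry2 (6.08 ± 0.48) and Spry4 (5.34 ± 1.71 FPKM) followed with ranges that overlapped their neighbours. Below them, without overlap, came Fgfr2 at 3.07 ± 0.37, Fgfr3 at 1.59 ± 0.25 and Fgfr4 at 0.319 ± 0.0842 FPKM. Fgfr1 was thus the leading receptor in THY1+ cells. In WT KIT+ cells the order changed. Spred1 (16.2 ± 3.45 FPKM) and Dusp6 (14.5 ± 4.39 FPKM) now overlapped, Fgfr2 led the receptors at 6.69 ± 1.61 FPKM, with a range that just overlapped that of Fgfr1 (4.09 ± 1.21 FPKM), and Fgfr4 remained last at 0.967 ± 0.372 FPKM.

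KIT+ and THY1+ cells of WT were compared to ask which parts of the pathway differ between dSPG and uSPG. Genes were called at an adjusted p of 0.05 or below (limma on log2(FPKM + 0.1), Benjamini-Hochberg over 22374 genes) with a change of 1.5-fold or more. By this rule 7 of the 9 genes were called, and 21.2% of all genes tested were, 7.21% higher in KIT+ and 14% lower. The inhibitors Dusp6, Spry4, Spry1 and Spry2 fell in KIT+, and the receptors Fgfr2, Fgfr4 and Fgfr3 rose. Dusp6 was at 54.5, 56.5 and 52.6 FPKM in the 3 THY1+ libraries and at 9.57, 17.9 and 16.2 FPKM in the 3 KIT+ libraries. All KIT+ libraries were below all THY1+ libraries, and the difference was -1.95 on the log2 scale (SE 0.21, adjusted p = 5.78e-05). Spry4, a Sprouty closely tied to FGF signalling in the embryo, was at 5.45, 6.99 and 3.59 FPKM in THY1+ and at 0.841, 2.49 and 1.23 FPKM in KIT+. Its groups did not overlap either, with a log2 difference of -1.83 (SE 0.37, adjusted p = 0.00362).

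The other Sprouty genes showed smaller differences in the same direction. Spry1, known for restraining GDNF and FGF signals in the kidney, was at 7.54, 6.51 and 5.95 FPKM in THY1+ and 2.50, 4.66 and 3.65 FPKM in KIT+. The log2 difference of Spry1 was -0.91 (SE 0.25, adjusted p = 0.0193). Spry2 was at 6.61, 5.68 and 5.95 FPKM in THY1+ and 2.71, 4.21 and 3.99 FPKM in KIT+, with a log2 difference of -0.75 (SE 0.22, adjusted p = 0.0244). Every KIT+ library was below every THY1+ library for both genes, as was the case for 42.7% of all genes in one direction or the other. Spred1 overlapped between fractions, at 18.4 to 24.3 FPKM in THY1+ and 13.3 to 20.0 FPKM in KIT+ (log2 difference -0.45, SE 0.17, adjusted p = 0.0699).

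Of the receptors, Fgfr2, which binds FGF7 and FGF10 through its epithelial form, was at 3.21, 3.34 and 2.65 FPKM in THY1+ and at 5.43, 8.50 and 6.13 FPKM in KIT+. The log2 difference was 1.08 (SE 0.19, adjusted p = 0.00145). Fgfr4, which serves FGF15 with the coreceptor KLB in the liver, was at 0.291, 0.413 and 0.252 FPKM in THY1+ and 0.555, 1.28 and 1.07 FPKM in KIT+, a log2 difference of 1.30 (SE 0.35, adjusted p = 0.0158). Both receptors were thus higher in every KIT+ library than in any THY1+ library. Fgfr3, best known as a brake on bone growth, was at 1.47, 1.87 and 1.43 FPKM in THY1+ and 3.18, 2.35 and 2.30 FPKM in KIT+ (log2 difference 0.68, SE 0.22, adjusted p = 0.0388). Fgfr1 was the receptor that was not called, failing on the adjusted p alone, at 6.62, 7.99 and 4.68 FPKM in THY1+ and 3.29, 5.48 and 3.50 FPKM in KIT+ (log2 difference -0.64, SE 0.31, adjusted p = 0.141).

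The calls of Dusp6, Spry4 and Fgfr2 held on leaving out any 1 library. That of Fgfr3 was lost without WT THY1+ replicate 1 or 3 or any WT KIT+ library (adjusted p 0.0514 to 0.140), that of Fgfr4 without WT THY1+ replicate 1 or 3 or WT KIT+ replicate 2 or 3 (0.0504 to 0.0578), that of Spry1 without replicate 1 of either group (0.0721 and 0.0754), and that of Spry2 without replicate 1 of either group or WT THY1+ replicate 3 (0.0505 to 0.0938), while Spred1 was called without WT KIT+ replicate 2 (log2 difference -0.61, adjusted p = 0.0191). With a pseudocount of 1 in place of 0.1, the differences of Fgfr3 (0.47) and Fgfr4 (0.56) lay under 1.5-fold. All 8 Leydig markers tested rose in KIT+, with a median log2 difference of 3.88, and all 11 macrophage markers fell, with a median of -7.83, as did 13 of 15 uSPG markers, with a median of -2.01. The part of these cells in the member differences was not tested.

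**Figure D2:**
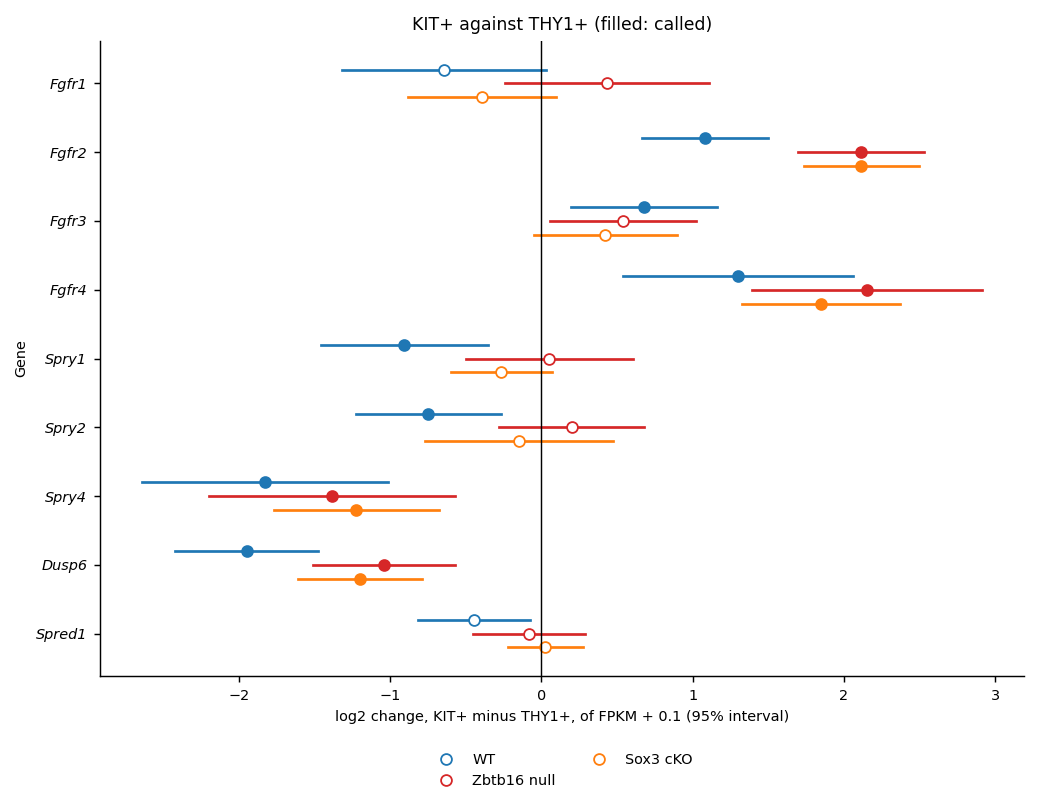
log2 difference in FPKM + 0.1 between KIT+ and THY1+ (x axis) for each gene (y axis) in WT, Zbtb16 null and Sox3 cKO, with 95% intervals from limma and filled points for calls. Dusp6 and Spry4 lie left of 0 and Fgfr2 and Fgfr4 right of 0 in all 3 genotypes.

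The same fractions were compared within the Zbtb16 null. Here 4 of the 9 genes were called, against 29.2% of all genes, and Fgfr2 and Fgfr4 rose in KIT+ while Spry4 and Dusp6 fell. In the null, Fgfr2 was at 2.19, 2.66 and 2.0 FPKM in THY1+ and 8.87, 12.2 and 9.64 FPKM in KIT+, a log2 difference of 2.11 (SE 0.19, adjusted p = 1.08e-05). Fgfr4 was at 0.170, 0.256 and 0.185 FPKM in THY1+ and 1.07, 2.14 and 0.831 FPKM in KIT+ (log2 difference 2.16, SE 0.35, adjusted p = 0.000537). Each KIT+ library of the null was above each THY1+ library for both receptors, and the groups did not overlap for 48.6% of all genes. Dusp6 was at 33.1, 40.3 and 36.6 FPKM in THY1+ and 14.0, 18.1 and 21.9 FPKM in KIT+ (log2 difference -1.04, SE 0.21, adjusted p = 0.00261). Spry4 was at 5.50, 6.88 and 4.33 FPKM in THY1+ and 1.68, 2.91 and 1.71 FPKM in KIT+ (log2 difference -1.39, SE 0.37, adjusted p = 0.0114). Spry1 and Spry2 overlapped between the fractions of the null, with log2 differences of 0.05 (95% interval -0.50 to 0.61) and 0.20 (-0.28 to 0.68).

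Fgfr1 (0.43, adjusted p = 0.292), Fgfr3 (0.54, adjusted p = 0.0738) and Spred1 (-0.08, adjusted p = 0.739) did not pass in the null. Leaving out null KIT+ replicate 3 brought Fgfr3 to a log2 difference of 0.77 and an adjusted p of 0.0147. All 8 Leydig markers rose in null KIT+, with a median log2 difference of 5.28, and all 11 macrophage markers fell, with a median of -6.31. Of 10 Sertoli markers, 8 were called higher there and 1 lower.

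In the Sox3 cKO, whose libraries matched their fraction labels, again 4 of 9 genes were called, against 22.7% of 21212 genes tested. Fgfr2 was at 3.11, 3.42 and 2.52 FPKM in THY1+ and 15.8, 12.2 and 12.2 FPKM in KIT+ (log2 difference 2.12, SE 0.17, adjusted p = 4.32e-06). Fgfr4 was at 0.325, 0.308 and 0.353 FPKM in THY1+ and 1.85, 1.19 and 1.36 FPKM in KIT+ (log2 difference 1.85, SE 0.24, adjusted p = 0.000159). Both receptors rose without overlap, which was seen for 44.5% of all genes in one direction or the other. Dusp6 fell from 64.7, 53.9 and 69.2 FPKM in THY1+ to 29.0, 22.3 and 30.7 FPKM in KIT+ (log2 difference -1.20, SE 0.19, adjusted p = 0.000595). Spry4 fell from 6.48, 4.81 and 6.43 FPKM to 2.38, 2.16 and 2.87 FPKM (log2 difference -1.22, SE 0.25, adjusted p = 0.00360), and in replicates 2 and 3 alone its difference was -1.13 with an adjusted p of 0.0755. The log2 differences of Fgfr1 (-0.39), Fgfr3 (0.42), Spry1 (-0.27), Spry2 (-0.15) and Spred1 (0.03) did not pass. In the same libraries the Leydig markers summed to 78.0 to 112.0 FPKM in THY1+ and 2535 to 5017 FPKM in KIT+, and 8 of 8 rose.

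**Figure D3:**
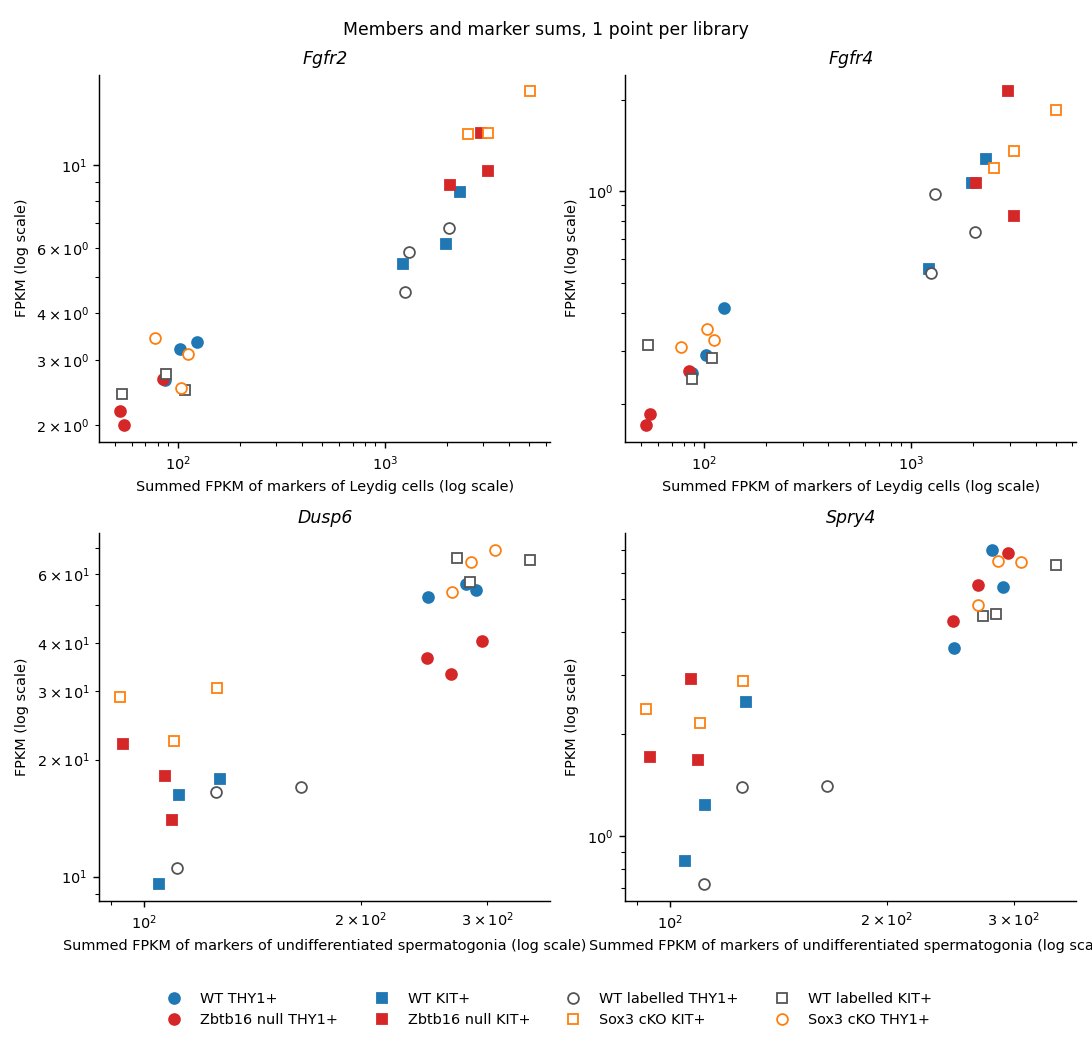
FPKM of Fgfr2 and Fgfr4 against the summed FPKM of 8 Leydig cell markers, and of Dusp6 and Spry4 against that of 15 uSPG markers, on log axes, with 1 point per library, filled for the Zbtb16 table and open for the Sox3 table. Libraries fall into 2 clusters by marker content in each panel, and the WT libraries labelled THY1+ of the Sox3 table lie with the KIT+ libraries.

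Mean marker sums of Leydig cells and of Sertoli cells were both higher in the groups with more Fgfr2 and Fgfr4. In the 4 groups with a Leydig sum of 52.6 to 124.7 FPKM (THY1+ of WT, null and cKO, and the WT labelled KIT+, with 53.8 to 109.0 FPKM), Fgfr2 lay between 2.0 and 3.42 FPKM. In the 4 groups with sums of 1229 to 5017 FPKM it lay between 4.58 and 15.8 FPKM. Within the second set, the group means of the sum ran in the order WT labelled THY1+ (1535), WT KIT+ (1839), null KIT+ (2723) and cKO KIT+ (3566 FPKM), and those of Fgfr2 in the same order (5.74, 6.69, 10.2 and 13.4 FPKM). Means of Fgfr4 followed this order too, at 0.752, 0.967, 1.34 and 1.47 FPKM, with ranges that overlapped between neighbours. In null KIT+, the library with the highest Leydig sum (3165 FPKM) had the lowest Fgfr4 (0.831 FPKM). In WT KIT+ and cKO KIT+, Fgfr4 rose with the sum from library to library. In WT labelled THY1+ it did not, at 0.539, 0.982 and 0.735 FPKM for sums of 1257, 1313 and 2034 FPKM. Fgfr2 rose with the sum between libraries except in null KIT+, with 12.2 FPKM at a sum of 2930 and 9.64 FPKM at 3165 FPKM. Mean Sertoli sums in this order were 70.1, 69.9, 94.3 and 137.3 FPKM, against 25.4 to 47.6 FPKM in the first set. Single libraries of the sets overlapped slightly. The Sertoli list held 10 genes for Zbtb16 libraries and 9 for Sox3 libraries. Mean peritubular and stromal sums in this order were 294.9, 358.5, 604.0 and 639.9 FPKM, but 394.1 to 707.8 FPKM in the first set. Within the first set, means of Dusp6 were 36.7 (null THY1+), 54.5 (WT THY1+), 62.6 (cKO THY1+) and 63.0 FPKM (WT labelled KIT+). In this order the macrophage sums were 703, 1163, 1377 and 1475 FPKM, and the uSPG sums 270, 273, 287 and 300 FPKM. The T cell sums were 10.9, 15.1, 20.5 and 21.8 FPKM. Dusp6 ranges overlapped between neighbours other than null and WT. Because the libraries fall into clusters by fraction, no correlation over all of them is given. The part of Leydig cells, Sertoli cells, peritubular and stromal cells, macrophages, T cells, uSPG or other cells in these levels was not tested.

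Null and WT were then compared within each fraction, to ask whether the receptors and inhibitors respond to loss of ZBTB16. In THY1+ cells limma called 0 of the 9 genes without a replicate block, and Fgfr1 among 1980 genes in all with it. Without the block 2 of the 9 had an unadjusted p under 0.05, as did 5325 of the 22374 genes tested, and 3.98% of all genes were called. The 890 genes behind this share became 296 to 373 without replicate 1 or 2 of WT or replicate 1 or 3 of null, while the 9 genes had no call without any 1 library. Fgfr1 was at 3.20, 5.07 and 2.68 FPKM in null and 6.62, 7.99 and 4.68 FPKM in WT. The groups overlapped, and the log2 difference was -0.82 (95% interval -1.49 to -0.15, adjusted p = 0.140). Each null library was below the WT library of the same replicate number, and with the replicate as a block the adjusted p was 0.00346 for the same difference. The study, with DESeq2, names Fgfr1 as a ZBTB16-bound gene that was lower in null THY1+ cells. Dusp6 was at 33.1, 40.3 and 36.6 FPKM in null and 54.5, 56.5 and 52.6 FPKM in WT, without overlap, as for 29.5% of all genes (log2 difference -0.57, 95% interval -1.05 to -0.10, adjusted p = 0.138). Fgfr3 did not overlap either, at 1.04 to 1.32 FPKM in null and 1.43 to 1.87 FPKM in WT (-0.37, adjusted p = 0.329). The differences of the other 6 genes lay between -0.45 for Fgfr4 and 0.08 for Spry4.

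Markers of somatic cells moved with the null in THY1+ libraries. Of 8 Leydig, 11 macrophage and 12 peritubular and stromal markers tested, 0, 0 and 1 had a positive log2 difference, and the medians were -0.73, -0.75 and -0.66. The 8 germ cell markers were at a median of 0.32 and all had a positive difference. Among these lists, 2 macrophage genes were called lower and none of the others was. The part of this shift in the member differences was not tested.

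In KIT+ cells limma called 0 of 9 genes without the block, and Fgfr2 and Spry2 among 513 genes in all with it. Without the block 5 of the 9 had an unadjusted p under 0.05, as did 3863 of all genes tested. In the same fit 0.259% of all genes were called, 58 in number and 25 to 37 on leaving out any 1 KIT+ library. Spry2 was at 5.12, 6.14 and 8.90 FPKM in null and 2.71, 4.21 and 3.99 FPKM in WT, a log2 difference of 0.85 (95% interval 0.37 to 1.33, adjusted p = 0.151), with no overlap. Fgfr2 was at 8.87, 12.2 and 9.64 FPKM in null and 5.43, 8.50 and 6.13 FPKM in WT, also with no overlap, found for 17.5% of all genes (log2 difference 0.62, 95% interval 0.21 to 1.04, adjusted p = 0.180). Both were called with the replicate as a block, Fgfr2 at an adjusted p of 0.0292 and Spry2 at 0.0499. Spry1 was at 3.99, 7.02 and 6.63 FPKM in null and 2.50, 4.66 and 3.65 FPKM in WT (0.69, adjusted p = 0.220). Fgfr3 had the opposite sign to the other 8, at 1.27 to 2.25 FPKM in null and 2.30 to 3.18 FPKM in WT (-0.51, adjusted p = 0.274). Leydig, peritubular and stromal, and endothelial markers were higher in null KIT+ for 8 of 8, 11 of 12 and 8 of 8 genes, with medians of 0.64, 0.69 and 0.58 and none called. Their part in the member differences was not tested.

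The interaction asked whether the effect of the null differed between fractions. It was not called for any of the 9 genes by limma, although 5 had an unadjusted p under 0.05, as did 5014 of all genes tested, and 0.0313% of all genes were called. These 7 genes became 867 without null KIT+ replicate 1 and 1 or 2 without any other library, and again 0 of the 9 were called. The interaction was positive for 8 of 9 genes, with the exception of Fgfr3 (-0.14), and the median over the 9 was 0.91. Over all genes tested it was positive for 11273 of 22374, with a median of 0.0039. Fgfr1 had the largest interaction (1.08, SE 0.43, adjusted p = 0.178), followed by Fgfr2 (1.03, SE 0.27, adjusted p = 0.0944), Spry1 (0.96, SE 0.36, adjusted p = 0.156), Spry2 (0.95, SE 0.31, adjusted p = 0.124) and Dusp6 (0.91, SE 0.30, adjusted p = 0.130). The interaction was also positive for 8 of 8 Leydig and 11 of 11 macrophage markers tested, with medians of 1.35 and 0.86. Peritubular and stromal, endothelial and Sertoli markers had medians of 1.35, 0.98 and 0.83, and germ cell markers one of -0.46. The part of these cells in the interaction of the 9 genes was not tested.

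**Figure D4:**
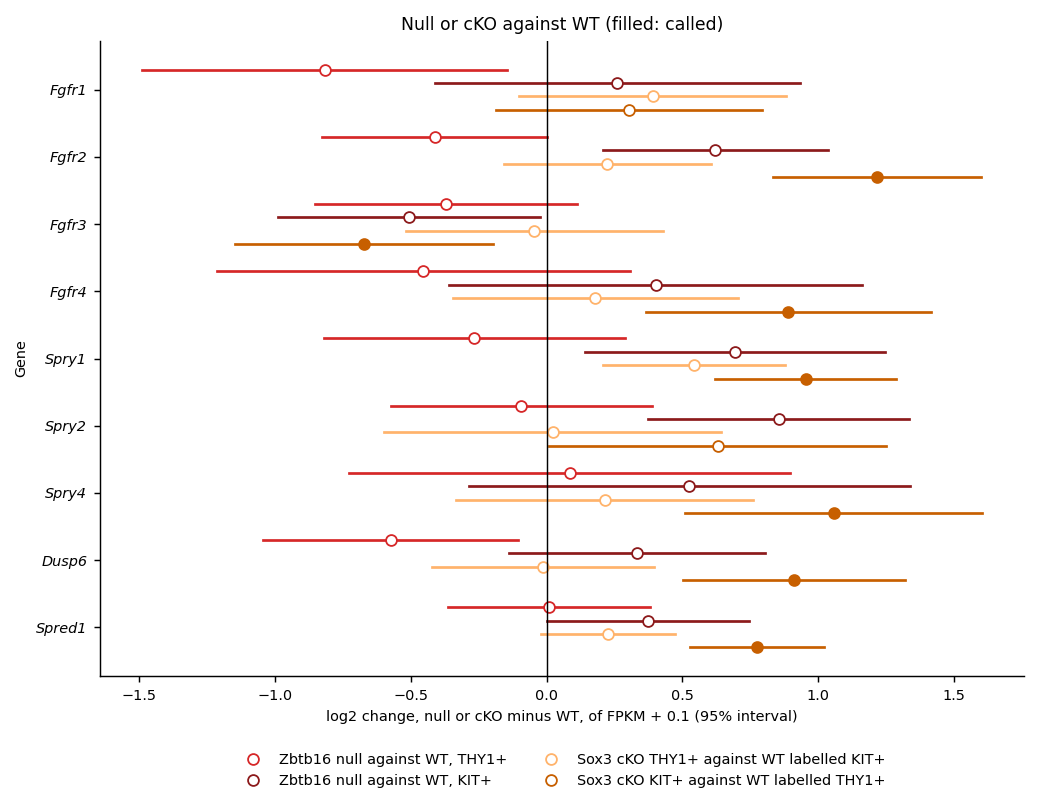
log2 difference in FPKM + 0.1 between null or cKO and WT (x axis) for each gene (y axis) in 4 comparisons, with 95% intervals from limma and filled points for calls. No Zbtb16 comparison has a filled point, and 7 genes have one between cKO KIT+ and WT labelled THY1+.

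For Sox3, the average of the cKO effect over both fractions does not depend on which WT group is which fraction. By this measure 3 of 9 genes were called higher in cKO, against 7.49% of all genes called higher and 10.3% called in either direction. Spry1 had a log2 difference of 0.75 (SE 0.11, adjusted p = 0.00260), Fgfr2 of 0.72 (SE 0.12, adjusted p = 0.00372) and Spry4 of 0.64 (SE 0.18, adjusted p = 0.0243). Spred1 (0.50, adjusted p = 0.00326), Fgfr4 (0.53, adjusted p = 0.0395) and Dusp6 (0.45, adjusted p = 0.0299) passed on p but lay under 1.5-fold. Fgfr1 (0.35), Spry2 (0.33) and Fgfr3 (-0.36) did not pass. The Spry4 call was lost without WT labelled THY1+ replicate 2 (log2 difference 0.49), WT labelled KIT+ replicate 1 or 2, cKO THY1+ replicate 3 or cKO KIT+ replicate 3 (adjusted p 0.0535 to 0.0603), and also with a pseudocount of 1 (log2 difference 0.435) or quantile normalization (adjusted p = 0.0750). Fgfr4 was called without WT labelled THY1+ replicate 3 (0.63) or cKO KIT+ replicate 2 (0.60). In replicates 2 and 3 alone, the less deeply sequenced set, Spry1 was the 1 gene still called, with Fgfr2 at 0.69 (adjusted p = 0.0508) and Spry4 at 0.64 (adjusted p = 0.140). Leydig markers rose in the average for 6 of 8 genes (median 0.87) and peritubular and stromal markers for 4 of 12 (median 0.56), and their part was not tested.

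Groups of like Thy1 and Kit levels were also compared. Between cKO THY1+ and WT labelled KIT+, 0 of 9 genes were called, 1 had an unadjusted p under 0.05, as did 2793 of the 21212 genes tested, and 0.0707% of all genes were called, 15 in number and 5 to 9 on leaving out any 1 library of the 2 groups. Dusp6 was at 64.7, 53.9 and 69.2 FPKM in cKO and 66.2, 57.3 and 65.4 FPKM in WT, a log2 difference of -0.01 with a 95% interval of -0.42 to 0.40. Spry1 was the gene with the largest difference, at 9.86, 10.5 and 9.60 FPKM in cKO and 7.12, 6.18 and 7.17 FPKM in WT (0.54, 95% interval 0.20 to 0.88, adjusted p = 0.249). Its groups did not overlap, nor did those of Spred1, against 19.6% of all genes. Of the summed marker lists, those of Leydig cells, macrophages and uSPG overlapped between these 2 groups. All germ cell markers summed to 1096 to 1272 FPKM in cKO and 1338 to 1475 FPKM in WT, dSPG markers to 194.0 to 205.0 and 236.1 to 273.3 FPKM, and endothelial markers to 21.6 to 35.3 and 15.4 to 17.5 FPKM, none of them with an overlap. Their part in the differences of Spry1 and Spred1 was not tested.

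Between cKO KIT+ and WT labelled THY1+, 7 of 9 genes were called, against 17% of all genes. Fgfr2 was at 15.8, 12.2 and 12.2 FPKM in cKO and 6.80, 4.58 and 5.84 FPKM in WT (log2 difference 1.22, SE 0.17, adjusted p = 0.00226). Spry4 was at 2.38, 2.16 and 2.87 FPKM in cKO and 1.39, 0.721 and 1.40 FPKM in WT (1.06, SE 0.25, adjusted p = 0.0123). Spry1 rose by 0.95, Dusp6 by 0.91, Fgfr4 by 0.89 and Spred1 by 0.77 on the log2 scale, with adjusted p of 0.00297, 0.00685, 0.0206 and 0.00226. Spred1 was at 25.7, 26.4 and 26.2 FPKM in cKO and 17.1, 13.2 and 15.6 FPKM in WT. Fgfr3 was the gene that fell, by 0.67 (adjusted p = 0.0431), from 2.73, 3.71 and 4.04 FPKM in WT to 1.58, 2.52 and 2.41 FPKM in cKO. Each of the 7 had no overlap between groups, against 40% of all genes, while Fgfr1 and Spry2 overlapped.

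Among these calls, that of Fgfr3 was lost without WT labelled THY1+ replicate 2 or 3 or cKO KIT+ replicate 1 or 3 (adjusted p 0.0581 to 0.147), and that of Fgfr4 without WT labelled THY1+ replicate 2 or cKO KIT+ replicate 1 (0.0833 and 0.0786). Both lay under 1.5-fold with a pseudocount of 1 (-0.505 and 0.493) and were not called with the 2 groups fitted alone (adjusted p = 0.102 and 0.0674), and Fgfr4 was not called with quantile normalization (adjusted p = 0.0611). In replicates 2 and 3 alone 2 of the 7 calls remained, Fgfr2 and Spred1, while Spry1 (0.981), Spry4 (1.22) and Dusp6 (0.961) kept differences of like size at adjusted p of 0.0507, 0.0769 and 0.0718. The count over all genes went from 3608 to 2334 without WT labelled THY1+ replicate 2. Markers of other cells moved with the comparison: 7 of 8 Leydig, 5 of 8 endothelial and 3 of 12 peritubular and stromal markers rose, with medians of 1.31, 1.02 and 0.82, and 3 of 8 germ cell markers fell, with a median of -0.51. Their part in the member differences was not tested. The difference between the 2 like-marker comparisons, added after their values were seen, was called for 0 of 9 genes by limma and for 0 of all genes (19 without WT labelled THY1+ replicate 1), with 4 of the 9 and 2709 of all genes at an unadjusted p under 0.05, and was 0.99 (SE 0.25, adjusted p = 0.184) for Fgfr2 and 0.92 (SE 0.26, adjusted p = 0.212) for Dusp6.

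As labelled, the 2 fractions gave opposite effects. Between cKO and WT labelled THY1+, 9 of 9 genes were called (29.1% of all genes), with Dusp6 at 2.11, Spry4 at 2.28 and Fgfr2 at -0.90 on the log2 scale. The Spry2 call there (0.78, adjusted p = 0.0486) was lost with either other pseudocount, quantile normalization, plain eBayes settings, the 2 groups or replicates 2 and 3 alone, and without WT labelled THY1+ replicate 2 or 3 or cKO THY1+ replicate 1 or 2 (adjusted p 0.0509 to 0.173). That of Fgfr1 was lost with quantile normalization, in replicates 2 and 3 alone and without WT labelled THY1+ replicate 1 or 2 or cKO THY1+ replicate 2 or 3 (0.0669 to 0.108), and that of Fgfr4 with a pseudocount of 1 (log2 difference -0.391) and in replicates 2 and 3 alone (0.0754). Between cKO and WT labelled KIT+, 4 of 9 were called (25.1% of all genes), with Dusp6 at -1.21, Spry4 at -1.01, Fgfr2 at 2.34 and Fgfr4 at 2.03, and the Spry4 call was lost in replicates 2 and 3 alone (-1.07, adjusted p = 0.0730). In both comparisons Thy1 and Kit differed as between fractions, by 3.78 and -1.84 in the former and by -3.40 and 1.95 in the latter.

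The rest of the FGF and ERK pathway was followed through 5 lists of other genes, described by counts and by medians. Ligands were low in these cells. The 15 secreted FGF ligands listed in the Zbtb16 table summed to 9.61 to 10.8 FPKM in WT THY1+ and 8.74 to 10.9 FPKM in WT KIT+, and 11 of them passed the filter on low values. Fgf9, a ligand of germ cells and Sertoli cells in the fetal testis, fell in KIT+ in all 3 genotypes (log2 differences -1.10, -1.52 and -1.51, adjusted p 0.00722, 0.000664 and 0.000107), from 0.989, 1.43 and 1.30 FPKM in THY1+. In WT, 0 ligands rose and 2 fell (Fgf7 and Fgf9), with a median of -0.12 beside -0.03 for all genes tested. Of all genes tested in WT, 7.21% were called higher in KIT+ and 14% lower. Among 6 coreceptors and binding proteins tested, Flrt1, a membrane protein that binds FGF receptors, rose in WT KIT+ (0.76, adjusted p = 0.00749) and was the one call.

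Inhibitors of ERK outside the 9 genes behaved unevenly. In WT KIT+, 4 of 9 tested fell and 0 rose, with a median of -0.57, beside 14% of all genes called lower and 7.21% higher. Il17rd (Sef), an inhibitor at the level of the FGF receptor, fell most, from 14.1 ± 2.14 FPKM in THY1+ to 3.87 ± 1.13 FPKM in KIT+ (log2 difference -1.87, adjusted p = 4.56e-05), and it fell in null (-1.96) and cKO (-1.74) as well. Dusp7, a relative of Dusp6, and Dusp5, a nuclear ERK phosphatase, fell in WT (-1.01 and -0.93) and cKO (-0.99 and -0.85). Dusp4, also a nuclear phosphatase, rose in KIT+ of null (1.83, adjusted p = 0.00429) and cKO (1.59, adjusted p = 0.00258) and was at 0.96 in WT without a call.

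Of the 6 ERK-induced transcription factors, 3 were called lower in WT KIT+ and 0 higher, with a median of -0.56. In null 2 were called lower and 2 higher, and in cKO 2 lower and 0 higher. Over all genes the shares called lower and higher were 14% and 7.21% in WT, 16% and 13.2% in null, and 12.2% and 10.5% in cKO. Etv5, an ETS factor needed for spermatogonial stem cells, fell from 16.2 ± 3.36 FPKM in WT THY1+ to 3.84 ± 1.96 FPKM in WT KIT+ (log2 difference -2.16, adjusted p = 0.00114), and Etv4 from 9.87 ± 1.04 to 2.72 ± 0.98 FPKM (-1.88, adjusted p = 0.000136). Both fell in null (-1.62 and -1.96) and in cKO (-1.53 and -1.78). The immediate early gene Fos rose in null KIT+ (1.46, adjusted p = 0.00670), as did Egr1 (0.84, adjusted p = 0.0345). Of 19 genes of the adaptors and the kinase cascade, 2 fell in WT KIT+, Mapk3 (-0.66) and Sos1 (-0.60), with a median of -0.20. In null 1 of them was called and in cKO 0, beside 29.2% and 22.7% of all genes in either direction.

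The same lists were compared between null and WT. In null THY1+ cells, Fgf22 (-1.0, adjusted p = 0.0432), Flrt1 (-0.76, adjusted p = 0.0320) and the adaptor Gab1 (-0.63, adjusted p = 0.0348) fell, and 0 of the other genes of the 5 lists were called. Of all genes tested, 3.98% were called in this comparison. In null KIT+ cells 0 were called by limma, beside 0.259% of all genes. An unadjusted p under 0.05 was seen for 4 of 6 coreceptors and binding proteins, 3 of 6 ERK-induced factors and 2 of 11 ligands. It was also seen for 2 of 19 adaptors and kinases and 0 of 9 other inhibitors, beside 3863 of 22374 genes tested. In the averaged Sox3 effect, where 10.3% of all genes were called, 5 of 11 ligands, 3 of 6 ERK-induced factors, 1 of 9 other inhibitors and 0 of 6 coreceptors and 0 of 19 adaptors and kinases were. Etv1 (1.09), Egr1 (0.95), Fos (0.90) and Dusp4 (0.75) rose, while Fgf22 fell by 0.86 on the log2 scale. The other ligands called were Fgf1 (0.65) and Fgf10 (0.76), which were higher, and Fgf3 (-0.73) and Fgf20 (-0.79), which were lower, and their mean was below 1 FPKM in all 4 groups. Between cKO KIT+ and WT labelled THY1+, 3 of 11 ligands were called lower, and 4 of 6 ERK-induced factors, 2 of 9 other inhibitors, 2 of 6 coreceptors and 1 of 19 adaptors and kinases higher. Of all genes tested there, 4.57% were called lower and 12.4% higher.

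**Figure D5:**
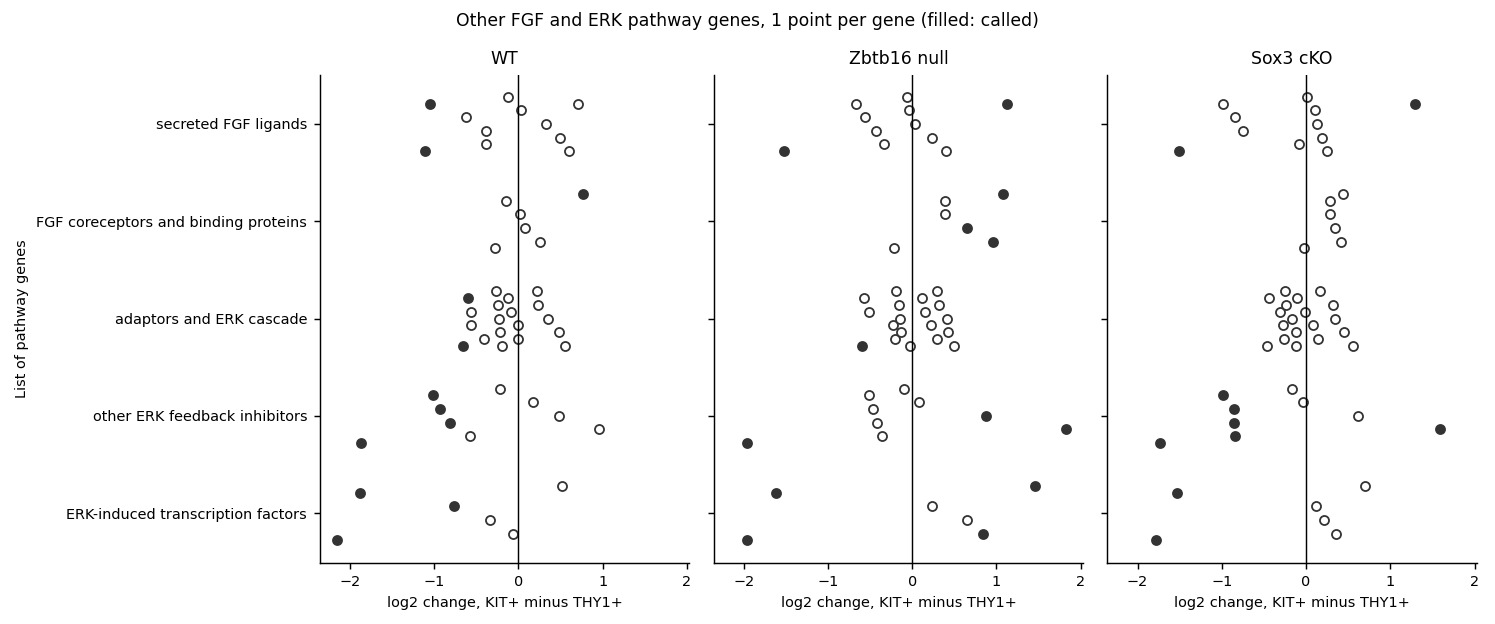
log2 difference in FPKM + 0.1 between KIT+ and THY1+ (x axis) for genes of 5 pathway lists (y axis, spread for legibility) in WT, Zbtb16 null and Sox3 cKO, 1 point per gene, filled for calls. Il17rd, Etv4 and Etv5 lie near -2 to -1.5 in each panel, and most adaptors and kinases lie near 0.

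Genes with the most similar pattern were sought among 15870 genes with a mean of at least 1 FPKM in both tables, ranked by the lower of the 2 Pearson correlations of log2(FPKM + 0.1), each over the 12 libraries of a table. These values are descriptions, since the libraries share fractions and marker content. Dusp6 was most like Lyn (lower r 0.984) and Egr2 (0.978), a SRC family kinase and an immediate early transcription factor, and Spry4 most like Dcaf12 (0.984) and Etv5 (0.982). Fgfr2 was most like Chdh (0.990) and Papss2 (0.989), enzymes of choline oxidation and sulphate donor synthesis, and Fgfr4 most like Fads2 (0.971), a fatty acid desaturase, and Sh3tc1 (0.969). Spry1 was closest to Bcl2 (0.963) and Fat4 (0.954), Fgfr1 to Sh3pxd2a (0.962) and Mprip (0.947), Spred1 to Tbc1d4 (0.941) and Asb7 (0.939), Fgfr3 to Cables2 (0.939) and Tbc1d2 (0.921), and Spry2 to Fstl1 (0.906) and Cnn3 (0.897).

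Among the 9 genes themselves, several pairs were closely correlated in both tables, over libraries that share fractions and marker content. Fgfr2 and Fgfr4 had a correlation of 0.964 over the Zbtb16 libraries and 0.969 over the Sox3 libraries, and Spry4 and Dusp6 of 0.890 and 0.985. Spry1 and Spred1 went together at 0.917 and 0.927. Fgfr3 was negatively correlated with each of the 5 inhibitors, from -0.726 to -0.597 in the Zbtb16 table and from -0.895 to -0.727 in the Sox3 table. Fgfr1 kept apart from Fgfr2 (0.213 and -0.246) and was nearer to Spry1 (0.633 and 0.672) and Spred1 (0.616 and 0.640).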

How the data were processed

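RNA-seq libraries of THY1+ and KIT+ cells were made with a stranded, ribosome-depleted kit. Per the labels and the methods of the study, reads were aligned with Novoalign to mm10 and tested by the authors with DESeq2. The DESeq2 results did not enter the fits here. The authors deposited FPKM values per gene, with USeq named in the study for this step, in a table per experiment, and 0 columns of per-sample values were left out here. Whether their counting used strand is not given in the sources used here. FPKM removes length and depth, so total RNA per cell is not recorded, and pooled fractions carry RNA of all cells on the beads.

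Each table was analysed alone. Values were taken as log2(FPKM + 0.1), for genes with a mean of at least 0.1 FPKM over 12 libraries, and fitted as 4 group means with limma 3.58.1 in R 4.3.3 (trend and robust empirical Bayes), and p-values were adjusted by Benjamini-Hochberg over all genes tested, two-sided. A fold change on this scale understates that of low genes. Genes with adjusted p 0.05 or below and a change of 1.5-fold or more were called. Depth was estimated from whole-number steps of values worth up to 10 reads, of which 83.0% to 86.8% per library were whole within 2%, and the test was checked on simulated data. The 9 genes, the pathway and marker lists and the tests were chosen with earlier results of these data known. Named pathway genes were chosen as calls with a mean of at least 1 FPKM in the higher group, at most 3 per list and comparison by size. Genes named in 1 comparison were also given in others, with or without a call. The ligands called in the averaged Sox3 effect are all named, and Fgf9 is named in WT, where its mean was under 1 FPKM.

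Replicate numbers come from the labels. Deviations of same-numbered libraries from their group means correlated above 0.1 in every pair for null against WT in THY1+ (0.144, 0.427 and 0.595) and in KIT+ (0.535, 0.636 and 0.461). The same held for the fractions of null and of cKO, and for cKO THY1+ against WT labelled KIT+. The main fits used no pairing for any comparison, and p-values are from them unless a replicate block is named. Over all pairs of groups the correlation was above 0.1 in 16 of 18 pairs of the Zbtb16 table and 14 of 18 of the Sox3 table. Alternatives changed the pseudocount, filter, scaling, eBayes settings, samples in the fit and replicate block, and left out each library.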

Additional observations from a re-analysis of the deposited data

Results flagged for a closer look

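With the replicate number as a block, the effect of the Zbtb16 null differed between KIT+ and THY1+ by 1.08 on the log2 scale for Fgfr1, by 1.03 for Fgfr2 and by 0.906 for Dusp6, each past the threshold of the test of the difference itself (adjusted p = 0.0151, 0.0148 and 0.0290, limma). Without the block none of the 3 passed. Of 22374 genes tested, 2756 were called with the block and 7 without it. Not every pair of same-numbered libraries of these groups correlated above 0.1.

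As labelled, every Sox3 cKO library moved one way from WT in one fraction and the opposite way in the other for 4 genes, and the difference between the fractions was not tested. Fgfr2 was at -0.899 in THY1+ and 2.34 in KIT+, Fgfr4 at -0.959 and 2.03, Spry4 at 2.28 and -1.01, and Dusp6 at 2.11 and -1.21. In these comparisons the Thy1 and Kit levels of the WT libraries went against their labels. Groups of 3 libraries are too small for a test of single outlying libraries, and none was made.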

How the results depend on the processing

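Over 108 values of the 9 genes and 1806 alternative values, 1694 kept their direction and side of the threshold, 61 lost a call and 13 gained one. Of 38 calls, 22 were kept under every alternative run and none changed sign. With the replicate block, 1, 2 and 3 of the 9 genes were called for null against WT in THY1+, in KIT+ and for the interaction, in place of 0 each, and 1980, 513 and 2756 of all genes in place of 890, 58 and 7. The pairing of the interaction was not shown by every pair of libraries. For the fractions of WT, where the replicate 1 libraries correlated at 0.045, the block added a call of Fgfr1 (-0.644, adjusted p = 0.00234). The block changed no other count of the 9 genes by over 1.5 times. In replicates 2 and 3 alone, 1 gene was called in the averaged Sox3 effect and 2 between cKO KIT+ and WT labelled THY1+, in place of 3 and 7. The cause was not tested, although fewer libraries are fitted there. Leaving out 1 library gave 3 to 7 calls for the fractions of WT, with 3 without WT THY1+ replicate 1 and 4 without WT THY1+ replicate 3 or WT KIT+ replicate 1.

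Values near 0 changed sign, none of them called. Quantile normalization gave -0.0166 for Spred1 in null against WT THY1+, -0.0123 for Spry1 in the fractions of null, -0.0121 for Spred1 in those of cKO, and 0.122 for Dusp6 and -0.0204 for Spry2 in cKO THY1+ against WT labelled KIT+. Median-ratio scaling gave 0.00344 for Dusp6 in the last and 0.0149 for Fgfr1 in cKO against WT labelled KIT+. On leaving out 1 library, in null against WT THY1+ Spry2 ranged from -0.211 to 0.0267, Spry4 from -0.171 to 0.301 and Spred1 from -0.114 to 0.0882, and in KIT+ Fgfr1 ranged from -0.00479 to 0.485. In the fractions of null Spry1 ranged from -0.0939 to 0.306, Spry2 from -0.0194 to 0.374 and Spred1 from -0.197 to 0.0354, and in those of cKO Spry2 from -0.389 to 0.0653. The interaction of Fgfr3 ranged from -0.299 to 0.0896, and the added Sox3 difference of Fgfr1 from -0.229 to 0.145. In cKO THY1+ against WT labelled KIT+, Dusp6 ranged from -0.0907 to 0.0901, Fgfr3 from -0.138 to 0.0453 and Spry2 from -0.171 to 0.229, and in cKO against WT labelled KIT+ Fgfr1 from -0.140 to 0.139 and Spry2 from -0.368 to 0.0869.

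Counts over all genes moved more. With a pseudocount of 1 they were 565, 25 and 45 for the 3 Zbtb16 genotype results above, 2883 of 4737 and 4070 of 6532 for the fractions of WT and null, and 1024 of 2188 for the averaged Sox3 effect. With a mean of at least 1 FPKM required they were 468 for null THY1+, 3139 and 4332 for those fractions, and 9 of 15 for cKO THY1+ against WT labelled KIT+, where the 2 groups fitted alone gave 1, the block 29 and replicates 2 and 3 alone 0. The 2 KIT+ groups of the Zbtb16 table alone gave 2 for null against WT, and median-ratio scaling 2 for the interaction. Replicates 2 and 3 alone gave 2480 of 4809 for the fractions of cKO, 597 for the averaged effect, 3291 of 5314 for labelled KIT+ and 987 of 3608 for cKO KIT+ against WT labelled THY1+. Quantile normalization moved the median of all genes from 0.0358 to -0.0739 for cKO against WT labelled THY1+, and no other median moved by over 0.1 under either scaling. Quantile normalization moved the split of calls: 2427 of 4913 were higher in KIT+ of WT, against 1614 of 4737, 1094 of 1902 in the averaged Sox3 effect, against 1588 of 2188, 2911 of 6109 in labelled THY1+, against 3768 of 6166, and 1917 of 3225 between cKO KIT+ and WT labelled THY1+, against 2638 of 3608.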
